A study of Drosophila mojavensis with 127 samples.

Results

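The 40 transcripts described here had the lowest mated minus nonmated expression in males of the cactus fly Drosophila mojavensis, among transcripts that were not also clearly lower in mated females. They were chosen from 14528 transcripts measured on NimbleGen arrays, each carried by the files as 1 log2 value per array. For every transcript the mated minus nonmated difference was taken in each of 8 strata, a stratum being 1 population on 1 host cactus, and averaged over the 8 strata in males and in females. The members were the 40 transcripts with the lowest male average among those whose female average was above -0.3. These 2 averages chose the set, so they are given below as a description, with no test.

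The study compared mated with nonmated flies, males with females, flies of 4 populations, and flies reared on fermenting agria cactus (Stenocereus gummosus) or organ pipe cactus (Stenocereus thurberi). The mainland populations are those of Punta Onah (Sonora) and of Arizona's Organ Pipe National Monument; the Baja California ones come from San Quintin and from Punta Prieta. All flies were wild type, and each of the 32 groups is 1 combination of population, host, sex and mating status, so that the mated and the nonmated flies of a stratum shared population, host and sex. The labels give no age, no time since mating and no tissue. After arrays that shared a replicate number were averaged, there were 123 replicates, 3 or 4 in a group, of which 29 were mated males, 32 nonmated males, 31 mated females and 31 nonmated females. Nothing states that replicates came from separate cultures, so p-values measure the spread between these samples only, and the number of arrays limits the precision.

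In Drosophila a mating male passes sperm together with seminal fluid proteins, most of which are made in the accessory glands, and the glands refill their stores afterwards. In Drosophila melanogaster, courtship and mating also change transcripts in the head and in other tissues of males. Drosophila mojavensis lives and breeds in rotting cactus, mainly agria in Baja California and mainly organ pipe on the mainland. The 40 members have no gene names here: none of the 14528 identifiers matched the supplied gene table, so the members are given by transcript identifier and no function is given to them. In RNA from many cells together, fewer cells of a type and less RNA per cell cannot be told apart.

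Array medians lay between 10.15 and 10.64 log2 units. A sex index, which subtracts the average of the 200 most female-biased transcripts from that of the 200 most male-biased, had a median of 4.64 in mated males and 4.80 in nonmated males, and it was negative in all female replicates. In 2 male replicates it lay nearer to the females than in any other male replicate, at 1.06 in mated Organ Pipe National Monument males on agria (replicate 1) and at 2.80 in nonmated Punta Prieta males on organ pipe (replicate 1). When both were left out, the rule chose 37 of the same 40 transcripts. The 2 lists of the index were taken from these same arrays, so its sign is no independent check of the sex labels.

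The nonmated Punta Onah males on organ pipe stood apart from the other Punta Onah males in the level of the set. The mean of the 40 members was 9.93 to 10.76 in these 4 replicates and 8.02 to 9.02 in the other 12 Punta Onah male replicates, whereas it was 9.37 to 11.63 in the 45 male replicates of the other 3 populations. For the set, the 4 replicates therefore lay inside the range of the other populations and outside that of the remaining Punta Onah males. The level of 19 other transcripts was read in males as well, namely those that differed at least 2-fold between Punta Onah females and the other females, 11 higher and 8 lower. Their index, the mean of the 11 minus the mean of the 8, was 3.27 to 3.60 in the 4 replicates, 2.02 to 3.07 in the other 12 Punta Onah males, and -0.47 to 2.87 in males of the other populations. The index of the 4 replicates thus lay above that of every other male replicate, Punta Onah males included. It did not separate the other Punta Onah males from Organ Pipe National Monument males, whose nonmated replicates on organ pipe were at 2.68, 2.87, 2.71 and 1.89, so it is no check of the population label, and an exchange of samples was not tested. Results that rest on this stratum are given with and without it.

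The male mating difference of the members ranged from -0.94 to -0.38, with a median of -0.42 on the log2 scale, against a median of 0.00 over all transcripts. Their female mating difference ranged from -0.23 to 0.30, with a median of 0.07, and it was above 0 for 29 of the 40. Just inside the limit on the male difference lay FBtr0169020 and FBtr0168019, both at -0.38, and just outside lay FBtr0165261, also at -0.38, and FBtr0162670, at -0.37. The limit on the female difference left out 10 transcripts with as low a male difference. Their female differences were -1.24 to -0.55, while the lowest among the members was -0.23, of FBtr0162560.

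The label "lowered in mated males only" describes the average over strata and not the single strata. Of the 40 members, 2 were lower in mated males in all 8 strata, 3 in 7 strata, 21 in 6 strata and 12 in 5 strata, and the other 2 members in 4 and in 3 strata. Over all transcripts, 0.592% were lower in all 8 strata and 15.2% in 6 or more, against 26 of the 40 members, a count that the choice of members by the same differences raises. In females, too, most members were lower in mated flies in 5 of the 8 strata, as given below.

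In males, 6 strata had lower medians in mated flies and 2 had higher ones. The largest differences were in Punta Onah males on organ pipe, where the median member difference was -1.77 (range -4.06 to -0.34). All 40 members were lower in mated males there, 34 of them at least 2-fold. For 30 of them every mated replicate lay below every nonmated one, against 8.81% of all transcripts. Punta Prieta males on agria came next, with a median of -0.81, 35 members lower, 18 of them at least 2-fold, and 29 with no overlap between the groups, against 13.7% of all transcripts. The spread of the mating difference over all transcripts was also widest in these 2 strata. Its SD was 0.43 and 0.38, against 0.19 to 0.34 in the other 6. Over all transcripts the median difference was 0.08 and 0.00 in these 2 strata. The share of all transcripts that were at least 2-fold lower is not given. Every male stratum entered the average that chose the set, so the choice raises such counts of members.

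In 4 further male strata most members were lower in mated flies, by less. The median difference was -0.53 in San Quintin males on agria, with 38 members lower and 3 without overlap (1.93% of all transcripts). In Organ Pipe National Monument males on agria it was -0.47, with 36 lower and 1 without overlap (0.344% of all). It was -0.33 in Punta Onah males on agria, with 37 lower and 1 without overlap (0.929% of all). In Organ Pipe National Monument males on organ pipe it was -0.23, with 31 lower and 1 without overlap (2.66% of all). In these 4 strata the sign was shared by most members, while the replicates of mated and nonmated males overlapped for nearly all of them.

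The 2 Baja California strata on organ pipe ran the other way. In Punta Prieta males on organ pipe the median member difference was 0.29, with 36 members higher in mated males, 4 lower, and 0 with every mated replicate below every nonmated one (2.51% of all). In San Quintin males on organ pipe it was 0.40, with 31 higher, 9 lower, and 3 with every mated replicate below every nonmated one (13.4% of all). Of the 40 members, 30 were higher in mated males in both of these strata. Members with every mated replicate above every nonmated one were not counted.

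The mean of the 40 members in each replicate shows the same pattern. In Punta Onah males on organ pipe it was 8.49 ± 0.32 when mated and 10.33 ± 0.35 when nonmated (SD, n = 4 each), with no overlap between the groups. In Punta Prieta males on agria it was 9.80 ± 0.10 when mated (n = 3) and 10.62 ± 0.25 when nonmated (n = 4), again with no overlap. In Punta Onah males on agria it was low in both groups, 8.42 ± 0.32 when mated and 8.76 ± 0.31 when nonmated (n = 4 each). The remaining strata overlapped: the mean was 10.20 ± 0.56 in mated and 10.62 ± 0.35 in nonmated Organ Pipe National Monument males on agria (n = 4 each). On organ pipe, males of Organ Pipe National Monument had 10.60 ± 0.79 when mated and 10.90 ± 0.60 when nonmated, and Punta Prieta males 10.51 ± 0.16 when mated and 10.17 ± 0.49 when nonmated (n = 4 each). The mean was 10.23 ± 0.41 in mated (n = 3) and 10.73 ± 0.61 in nonmated San Quintin males on agria (n = 4). In San Quintin males on organ pipe, it was 9.92 ± 0.30 in mated (n = 3) and 9.57 ± 0.21 in nonmated flies (n = 4).

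**Figure D1:**
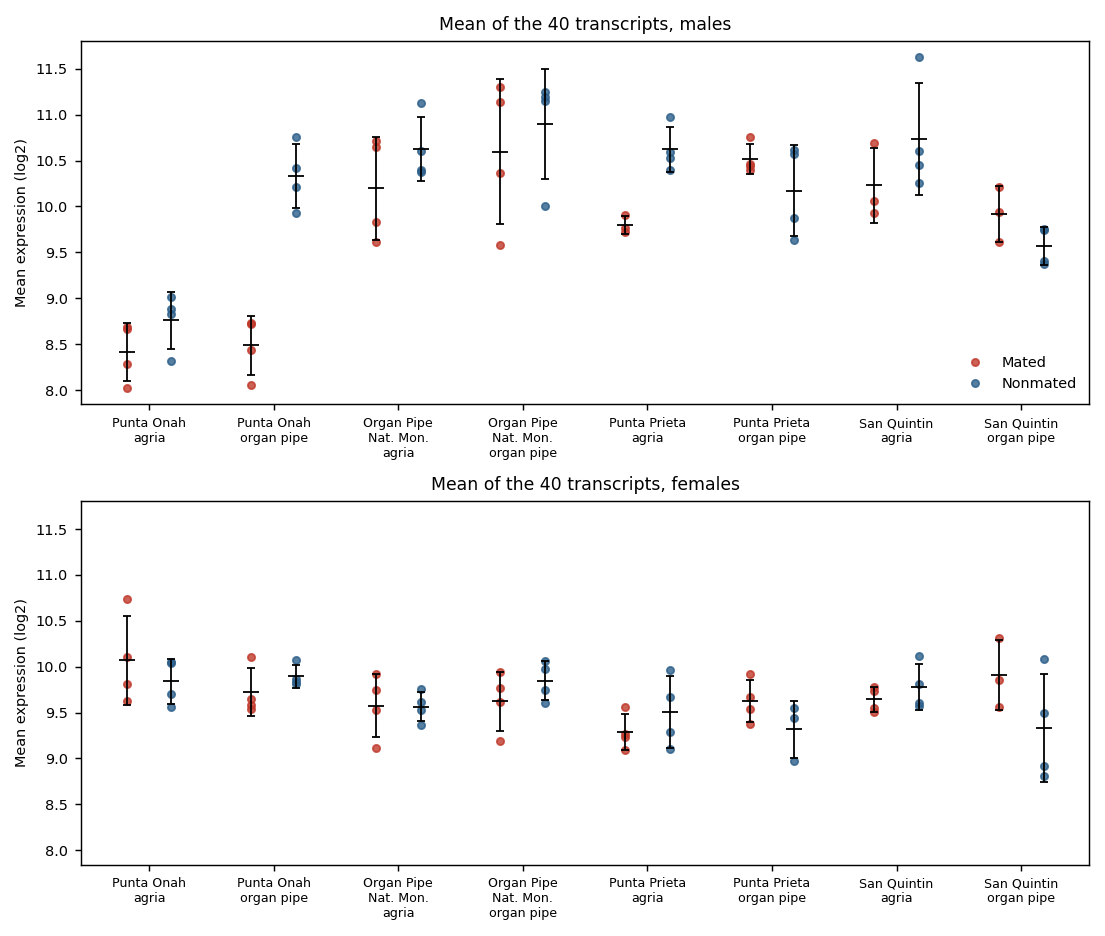
Mean log2 expression of the 40 transcripts in each male replicate (top) and female replicate (bottom), by population and host cactus. Red points are mated and blue points nonmated replicates, and black bars give the group mean and SD; mated Punta Onah males on organ pipe lie at 8.05 to 8.74 and nonmated ones at 9.93 to 10.76, while both Punta Onah male groups on agria lie at or below 9.02.

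In females the same 40 members gave differences of both signs. Their medians were smaller in size than the -1.77 and -0.81 of the 2 male strata with the largest differences. They were not smaller than in every other male stratum. The median member difference was 0.67 in San Quintin females on organ pipe (38 higher in mated females), 0.37 in Punta Prieta females on organ pipe (32 higher) and 0.23 in Punta Onah females on agria (36 higher). It was -0.23 in Organ Pipe National Monument females on organ pipe (35 lower), -0.22 in Punta Prieta females on agria (32 lower) and -0.19 in Punta Onah females on organ pipe (34 lower). The other 2 strata had medians of -0.11 and -0.07. The female average near 0 was thus made of strata in which most members were higher in mated flies and strata in which most were lower. The 2 Baja California strata on organ pipe were the ones with the highest medians in both sexes.

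**Figure D2:**
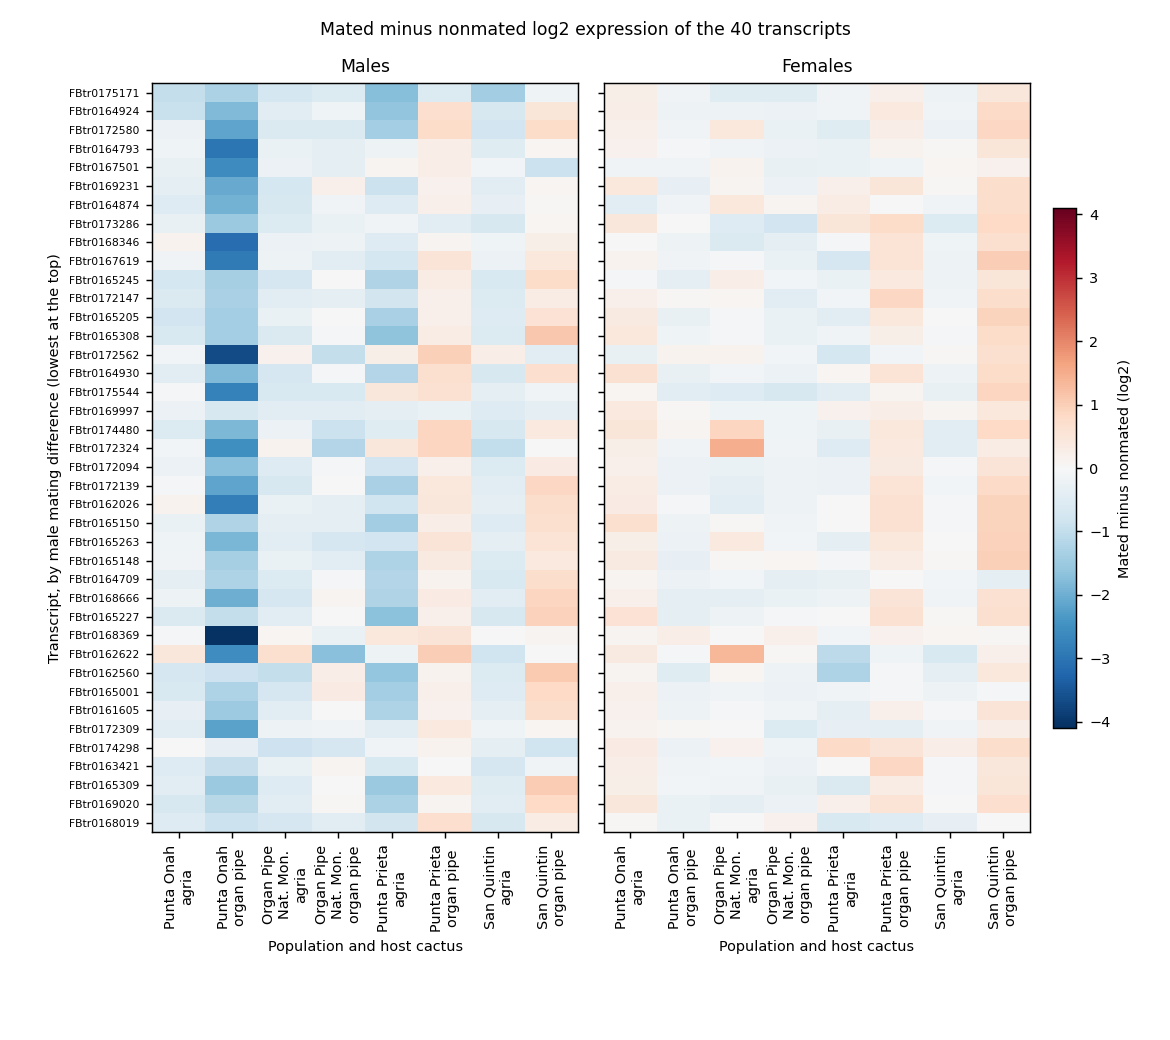
Mated minus nonmated log2 expression of each of the 40 transcripts, one to a line, in the 8 strata of males (left) and of females (right); blue is lower and red higher in mated flies, on 1 colour scale for both sexes. The column of Punta Onah males on organ pipe is blue throughout, down to -4.06, and the columns of Punta Prieta and San Quintin males on organ pipe are mostly red.

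Among single members, FBtr0175171 had the lowest male mating difference, -0.94. Its level was 9.35 ± 0.54 in mated males (n = 29, lowest 8.59, median 9.30, highest 10.73) and 10.25 ± 0.61 in nonmated males (n = 32, lowest 8.85, median 10.30, highest 11.43). It was lower in mated males in all 8 strata, and in 4 of them every mated replicate lay below every nonmated one. In Punta Prieta males on agria, FBtr0175171 was at 8.74, 8.86 and 8.72 in the mated replicates, against 10.27, 10.76, 10.23 and 10.84 in the nonmated ones, a difference of -1.75. In San Quintin males on organ pipe the groups overlapped, with 9.64, 9.36 and 8.92 when mated, against 8.99, 9.43, 9.96 and 9.60 when nonmated. In females the averages were 9.47 ± 0.41 when mated and 9.55 ± 0.34 when nonmated (n = 31 each), a mating difference of -0.07. Without all Punta Onah strata its male difference was -0.87, so FBtr0175171 did not depend on that population.

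FBtr0169997 was the other member lower in mated males in all 8 strata, and it varied least among them, with an SD of 0.14 over the strata and differences from -0.65 to -0.23. It averaged 12.14 ± 0.28 in mated males (n = 29, lowest 11.49, median 12.21, highest 12.62) and 12.57 ± 0.28 in nonmated males (n = 32, lowest 11.86, median 12.67, highest 13.00). The ranges overlapped over all males, and in 4 of the 8 strata the replicates did not overlap. In Organ Pipe National Monument males on organ pipe, FBtr0169997 was at 12.23, 12.62, 12.23 and 12.28 when mated, against 12.80, 12.85, 12.87 and 12.75 when nonmated. In females it averaged 9.17 ± 0.39 when mated and 9.05 ± 0.34 when nonmated (n = 31 each), and its highest female replicate, at 10.01, lay below its lowest male replicate. The next smallest spread over strata was that of FBtr0163421, with an SD of 0.36 and 7 of 8 strata lower in mated males.

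**Figure D3:**
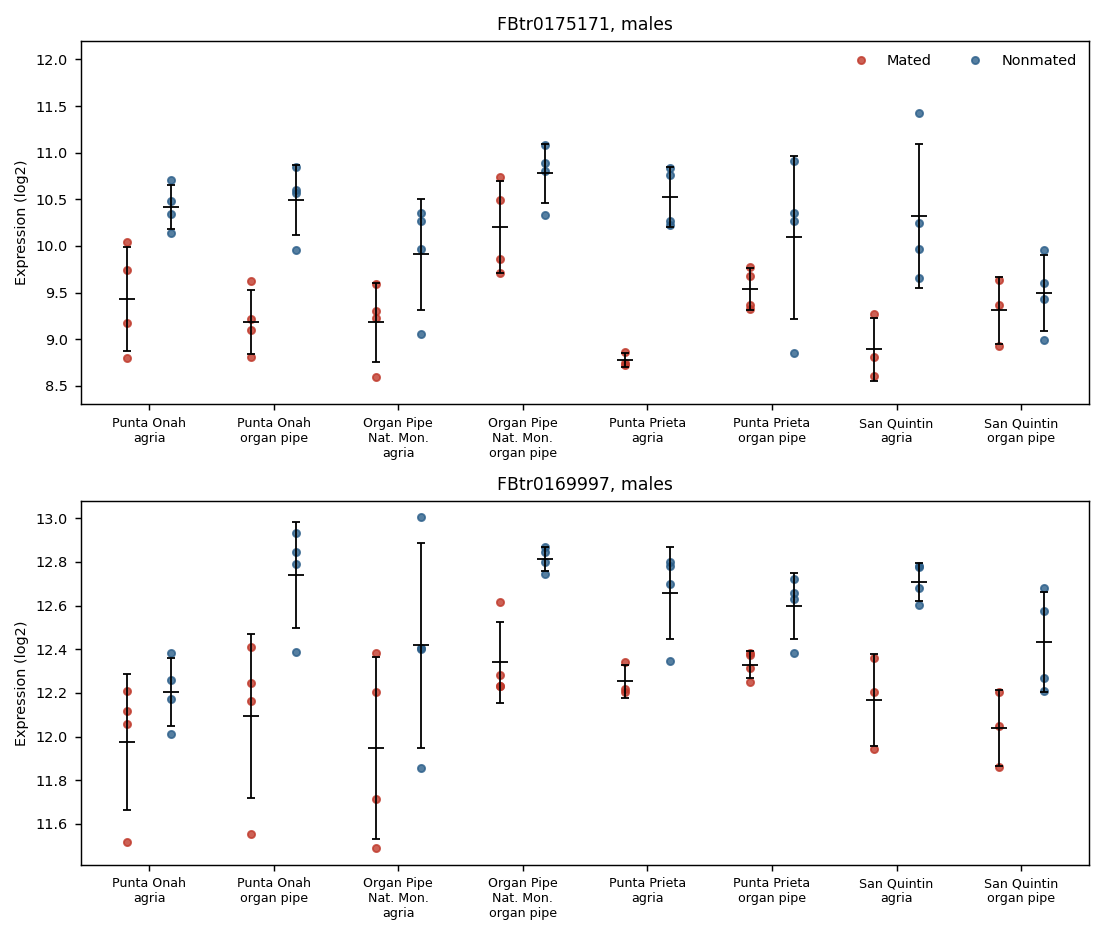
Log2 expression of FBtr0175171 (top) and FBtr0169997 (bottom) in every male replicate, by population and host cactus, with mated replicates in red and nonmated replicates in blue; black bars give the group mean and SD, and the vertical axes do not start at 0. In each of the 8 strata the mated mean lies below the nonmated mean for both transcripts.

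The second lowest male difference, -0.56, was that of FBtr0164924, which was lower in mated males in 6 strata. In Punta Prieta males on agria, FBtr0164924 was at 9.28, 9.96 and 10.49 when mated, against 11.62, 11.99, 11.16 and 11.38 when nonmated. In San Quintin males on organ pipe it was higher in mated males, by 0.49. The members with the highest female difference were FBtr0174298, at 0.30, and FBtr0165150, at 0.23, and their male differences were -0.39 and -0.41. FBtr0174298 averaged 10.66 ± 0.64 in mated males (n = 29) and 11.06 ± 0.49 in nonmated males (n = 32), with overlapping ranges.

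FBtr0168369 and FBtr0172562 varied most among the male strata, with an SD of 1.50 and 1.43. In Punta Onah males on organ pipe FBtr0168369 was at 8.36, 8.88, 9.07 and 8.73 when mated, against 12.97, 12.66, 12.83 and 12.80 when nonmated, a difference of -4.06. The groups lay far apart, but Punta Onah males on agria were low whatever their mating status, at 8.64, 8.26, 8.33 and 8.21 when mated and at 8.61, 8.14, 8.45 and 8.41 when nonmated. In the other 3 populations all male replicates of FBtr0168369 lay between 10.81 and 13.25, and in females of all populations it lay between 12.64 and 13.62. It was lower in mated males in 3 of the 8 strata, and without the Punta Onah organ pipe stratum its male mating difference was 0.13, above 0.

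FBtr0172562 showed the same arrangement. In Punta Onah males on organ pipe it was at 7.62, 6.84, 8.70 and 7.38 when mated, against 11.53, 11.26, 11.28 and 11.21 when nonmated, a difference of -3.68. On agria, Punta Onah males had 6.89, 6.93, 7.62 and 7.46 when mated and 8.84, 6.81, 6.56 and 7.11 when nonmated. Without the Punta Onah organ pipe stratum the male mating difference of FBtr0172562 was 0.03.

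That 1 stratum carried much of the male difference of the set. It held the lowest of the 8 differences for 32 of the 40 members, against 14.2% of all transcripts. It supplied a median of 50.2% of the average, and for 20 members at least 50%. The choice of members by that average raises these counts, since the spread over all transcripts was also widest in this stratum. Without it the median male mating difference of the members was -0.27, and without all of Punta Onah -0.22, and in each case 38 of the 40 members stayed below 0. With the stratum left out, 3 members kept a male difference at or below that of the last member chosen. Applied to the other 7 strata, the rule chose 15 of the same 40 transcripts, and applied to the other 3 populations, 8 of them.

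**Figure D4:**
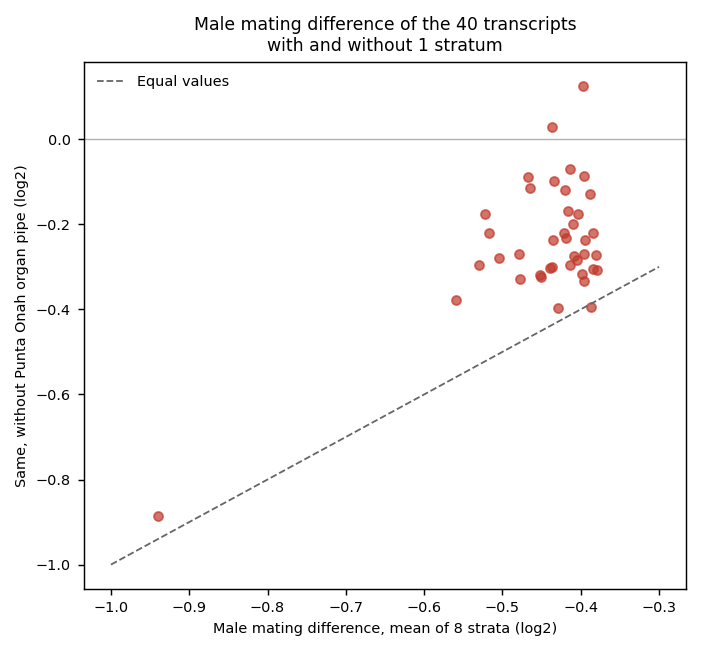
Male mating difference (mated minus nonmated, log2) of the 40 transcripts averaged over all 8 strata (horizontal axis) and over the 7 strata other than Punta Onah on organ pipe (vertical axis); each point is 1 transcript and the dashed line marks equal values. All but 1 point lie above the dashed line, 2 points lie above 0, and the point at the lower left is FBtr0175171 at -0.94 and -0.89.

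The level of the members, averaged over mated and nonmated groups, was then compared between Punta Onah and the other 3 populations. This comparison was added after the low Punta Onah males had been seen, and it uses the male replicates that chose the set, so its counts and values are a description of that pattern and not a test of it. In males, 34 of the 40 members were lower in Punta Onah and 3 higher at an adjusted p under 0.05 (limma, adjusted over all 14528 transcripts), whereas 26.1% of all transcripts were lower and 34.3% higher. The median member difference, Punta Onah minus the other 3, was -1.50 in males, against 0.04 over all transcripts. Of the 253 transcripts that were lower at least 2-fold in Punta Onah males, 31 were members. Punta Onah was the lowest of the 4 populations in males for 35 members, against 30.1% of all transcripts. Without the organ pipe stratum of Punta Onah the median was -1.71, with 35 members lower and 1 higher.

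The set mean was 9.00 ± 0.86 in Punta Onah males (n = 16), 10.12 ± 0.60 in San Quintin males (n = 14), 10.31 ± 0.42 in Punta Prieta males (n = 15) and 10.58 ± 0.59 in Organ Pipe National Monument males (n = 16). Among the last 3, neighbours in this order differed by less than 1 SD. FBtr0168369 differed by -2.68 ± 0.10 (SE of the fit) and lay at 8.14 to 12.97 in Punta Onah males, against 10.81 to 13.25 in the others. FBtr0168346 followed at -2.67 ± 0.11. Its median was 7.87 in Punta Onah males (n = 16, 6.95 to 11.50), against 12.01 in Organ Pipe National Monument males (n = 16, 10.87 to 12.66), 11.25 in Punta Prieta males (n = 15, 10.53 to 11.74) and 10.65 in San Quintin males (n = 14, 10.01 to 11.99). The 4 replicates of FBtr0168346 above 11 in Punta Onah males were the nonmated males on organ pipe, at 11.28, 11.02, 11.50 and 11.44. Among the members higher in Punta Onah males, FBtr0172324 differed by 0.97 ± 0.19 and FBtr0174480 by 0.82 ± 0.18.

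In females the members did not stand low in Punta Onah. The set mean was 9.88 ± 0.30 in Punta Onah females (n = 16), 9.65 ± 0.27 in Organ Pipe National Monument females (n = 16), 9.44 ± 0.29 in Punta Prieta females (n = 15) and 9.65 ± 0.40 in San Quintin females (n = 15). In Punta Onah females 10 members were higher and 2 lower at an adjusted p under 0.05, against 10.9% and 7.83% of all transcripts, and the median difference was 0.19. The count was 5 or 6 in all with any 1 replicate number left out. Without the Punta Onah organ pipe stratum 6 members were higher and 0 lower. Punta Onah was the lowest population in females for 5 members (27.1% of all transcripts). FBtr0162622 was higher in Punta Onah females by 3.07 ± 0.27 and FBtr0172324 by 1.79 ± 0.19. FBtr0168666 was lower, at -0.50 ± 0.16, and FBtr0172094 was at -0.36 ± 0.12, and neither call held without that stratum. FBtr0162622 lay at 9.99 to 11.92 in Punta Onah females, against 7.59 to 11.06, 5.57 to 10.01 and 6.39 to 9.84 in females of Organ Pipe National Monument, Punta Prieta and San Quintin.

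The Punta Onah difference was set side by side in the sexes in the same fit, again as a description added after the male values had been seen. It was lower in males than in females for 37 of the 40 members and higher for 0 at an adjusted p under 0.05, against 23.7% and 26.8% of all transcripts, and its median was -1.69. All 34 members that were lower in Punta Onah males were among the 37. Among them were FBtr0168346, at -3.24 ± 0.16, and FBtr0168369, at -2.51 ± 0.14. Without the Punta Onah organ pipe stratum 37 members were called in the same direction, with a median of -2.07.

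**Figure D5:**
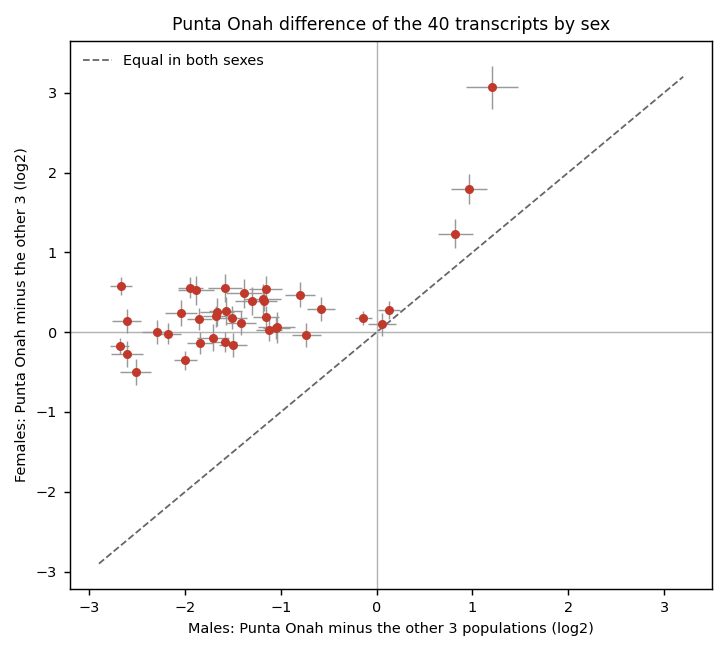
Difference of each of the 40 transcripts between Punta Onah and the mean of the other 3 populations (log2) in males (horizontal axis) and in females (vertical axis); bars give the standard error of the fit and the dashed line marks equal values in both sexes. In males 35 points lie left of 0, down to -2.68, whereas in females 30 points lie above 0, and all 40 lie above the dashed line.

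Between Baja California and the mainland, 24 members rose and 4 fell in Baja California males, against 19.4% and 26.8% of all transcripts, with a median of 0.50. This count rested on Punta Onah: all 24 were among the members lower in Punta Onah males. Without that population 1 member was higher and 16 were lower, with a median of -0.33, against -0.01 over all transcripts. The share of all transcripts called without Punta Onah is not given, so these counts show only that the calls moved. These are the male replicates that chose the set, so the male counts and values describe the pattern and do not test it. FBtr0168369 differed by 0.91 ± 0.09 between Baja California and mainland males and by -0.65 without Punta Onah. FBtr0172094 differed by 1.08 ± 0.11 and by 0.13 without Punta Onah. On the lower side, FBtr0172324 differed by -1.16 ± 0.17 and FBtr0162622 by -1.52 ± 0.24. In females 1 member rose in Baja California and 8 fell, against 10.5% and 15.4% of all transcripts. The one that rose was FBtr0168666, at 0.48 ± 0.14 (adjusted p = 0.00727, limma). The smallest p on the lower side was that of FBtr0162622, at -2.50 ± 0.24 (adjusted p = 5.74e-15, limma). Next was FBtr0172324, at -1.60 ± 0.16 (adjusted p = 1.44e-13, limma). Part of both differences lay in Punta Onah. FBtr0162622 averaged 11.01 in Punta Onah females and 8.91 in Organ Pipe National Monument females, against 7.33 in Punta Prieta and 7.54 in San Quintin. In the same order FBtr0172324 averaged 8.03 and 6.95, against 5.75 and 6.02.

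Host cactus gave few calls. In males 3 members were higher on organ pipe than on agria and 0 were lower, against 0.688% and 1.31% of all transcripts. FBtr0168346 differed by 0.39 ± 0.10 and FBtr0173286 by 0.46 ± 0.13. The male replicates compared are those that chose the set, so the male counts and values are a description only. Nonmated Punta Onah males on organ pipe, in which FBtr0168346 stood above the other Punta Onah males, lie on the organ pipe side. With 1 replicate number at a time left out of every group, 0 to 3 members were called. Without Punta Onah 0 members were called, and FBtr0168346 turned to -0.25 (adjusted p = 0.537, limma). In females limma called 0 of the 40 members in either direction, as 0% of all transcripts, the smallest adjusted p of a member was 0.650, and 0 members had an unadjusted p under 0.05, against 1301 transcripts in all.

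Between the sexes, averaged over population, host and mating status, 20 members were higher in males and 15 lower, against 36.9% and 56.1% of all transcripts. The median male minus female difference was 0.17 for the members and -0.24 for all transcripts. The replicates of both sexes are those that chose the set, so these counts and values are a description. FBtr0169997 was higher in males by 3.26 ± 0.06 and FBtr0174298 by 2.92 ± 0.09. FBtr0168369 was lower in males, at -1.62 ± 0.06, as was FBtr0165148, at -1.07 ± 0.08. Both leaned on Punta Onah, where FBtr0168369 averaged 9.58 in males and 13.08 in females. Its gap was narrower in Organ Pipe National Monument (12.70 and 13.28), Punta Prieta (12.37 and 13.34) and San Quintin (11.72 and 13.16). FBtr0165148 averaged 7.31 in males and 9.56 in females of Punta Onah, also its widest gap. Without Punta Onah 27 members were higher and 5 lower, and the lowest member difference was -0.99. The median was then 0.64 for the members and -0.24 for all transcripts. The share of all transcripts called in that fit is not given.

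The male mating difference was also set against itself between regions and between hosts. The mated and nonmated males are those that chose the set, so these counts are a description only. The mating difference in Baja California males minus that in mainland males was above 0 for 39 of the 40 members, with a median of 0.52. It was called in the positive direction for 6 members and in the negative for 0, against 0.95% and 1.38% of all transcripts. FBtr0168369, at 1.34 ± 0.17, and FBtr0172562, at 1.43 ± 0.27, were among them, and without Punta Onah they were at 0.36 and 0.68. The count was 1 without replicate 1, 2 without replicate 2, 4 without replicate 3 and 8 without replicate 4, and it was 3 in a fit to males alone and 12 with array weights. Without the Punta Onah organ pipe stratum 0 members were called, with a median of 0.18.

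The mating difference in males on organ pipe minus that in males on agria was called for 4 members in the positive direction and 4 in the negative, against 12.8% and 5% of all transcripts, with a median of 0.28. Neither the count nor the balance of directions was stable: 0 were positive and 1 negative without replicate 1, 1 and 3 without replicate 2, 8 and 2 without replicate 3, 6 and 3 without replicate 4, 0 and 2 in a fit to males alone and 0 and 6 with array weights. On the positive side were FBtr0162560 at 1.10 ± 0.33 and FBtr0165001 at 0.84 ± 0.26, and on the negative side FBtr0168369 at -1.04 ± 0.17 and FBtr0172562 at -1.18 ± 0.27. Without Punta Onah 18 members were called, all positive, with a median of 0.80, against -0.01 over all transcripts. The share of all transcripts called in that fit is not given, so the count shows only that the calls moved. FBtr0168369 was then at -0.05. In each of the other 3 populations the median member difference given above was lower on agria than on organ pipe, while in Punta Onah it was lower on organ pipe.

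The members varied more between replicates of 1 group than most transcripts. In males their within-group SD had a median of 0.59, against 0.28 over all transcripts, and 36 of the 40 lay above the 90th percentile of all transcripts, 0.45. In females the median SD was 0.48, against 0.25, and 25 members lay above the 90th percentile, 0.42. The spread was also shared. Across the 61 male replicates, the deviations of members from their group means had a mean pairwise correlation of 0.49, with 694 of 780 pairs above 0, against a mean of 0.01 over all transcripts. In the 62 female replicates the mean was 0.45, against 0.03 over all. These correlations are descriptions over replicates that share an array and its normalization. The members were chosen by differences between means of the same male replicates. Such a choice can favour transcripts with a wide and shared spread, so the male values are no independent trait of the members. The males' mean levels of the members ran from 6.81 to 12.36 with a median of 10.15, against a median of 10.53 over all transcripts, and 28 of the 40 passed a filter that removed the dimmest 25% of transcripts.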

How the data were processed

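Total RNA of the flies was hybridised in 1 colour to NimbleGen arrays. The deposited table holds 1 log2 value per transcript and array for 127 arrays, made by the authors with RMA, per the submitters' processing notes; RMA combines background correction, quantile normalization and probe summaries, and its settings are not given in the sources used here. All columns matched a sample title.

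Arrays of 1 group with the same replicate number (4 pairs) were averaged. A mean for each of 32 groups was fitted to 123 replicates of 14528 transcripts in limma 3.58.1 (R 4.3.3), with contrasts of group means, default eBayes, two-sided tests and Benjamini-Hochberg adjustment over all transcripts; a call is an adjusted p under 0.05. The procedure was tested on simulated data. Figures and summaries used Python 3.11.15.

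The set, the lists, the tests and the rule for named transcripts were chosen with earlier results of these data known. Named transcripts are the 2 lowest male and 2 highest female mating differences, the 2 smallest and 2 largest spreads over male strata, and up to 2 called members with the smallest p in each direction of each test. Alternatives covered normalization, a filter on dim transcripts, arrays sharing a number kept apart, array weights, a block for replicate number, 2 male replicates nearest the females, 1 sex alone, each replicate left out and, added after seeing the data, Punta Onah or its organ pipe stratum left out. Shares of all transcripts come from the fit described above. None is given beside counts under an alternative, which show only whether the calls held.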

Additional observations from a re-analysis of the deposited data

Results flagged for a closer look

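In 27 groups of 4 replicates the mean of the 40 members was searched for a replicate far from the others, and the levels of FBtr0175171 and FBtr0169997 were searched in the male groups of 4, which made 26 further searches. Chance marks about 1 in 20 such searches, and 2 were marked. In nonmated Organ Pipe National Monument males on organ pipe, the lowest replicate of the set mean was at 10.00, with a group mean of 10.90. In mated Organ Pipe National Monument males on organ pipe, the highest replicate of FBtr0169997 was at 12.62, with the other 3 at 12.23 to 12.28.

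The male mating difference of the members differed between groups. Between Baja California and mainland males 6 members were called, with FBtr0168369 at 1.34 and FBtr0172562 at 1.43. Between males on organ pipe and on agria 8 members were called, with FBtr0162560 at 1.10, FBtr0165001 at 0.84, FBtr0168369 at -1.04 and FBtr0172562 at -1.18. Both comparisons use the replicates that chose the set, and the calls moved when Punta Onah or a single replicate number was left out.

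The difference between Punta Onah and the other populations was lower in males than in females for 37 of the 40 members, with FBtr0168346 at -3.24 and FBtr0168369 at -2.51. This comparison was added after the low Punta Onah males had been seen, so it describes that pattern and does not test it. In Punta Onah males the sex index averaged 4.51 in mated and 4.88 in nonmated flies on organ pipe, and 4.46 in mated and 4.28 in nonmated flies on agria, so it was highest in the group with the high set mean. Its part in the result was not tested.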

How the results depend on the processing

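The same-number pairing of mated and nonmated replicates was not borne out: 21 of 59 pairs had correlated deviations above 0.1, with a mean of -0.01, and every pair did so in 1 of 16 strata by sex. With the replicate number as a block, the counts of called members were 35 for sex, 28 and 9 for region in males and females, 3 and 0 for host in males and females, 6 and 8 for mating by region and by host, 37 and 13 for Punta Onah in males and females and 37 for Punta Onah by sex, and the rule chose 39 of the same 40.

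Of 144 counts recomputed under an alternative, 112 stayed within 1.5 times. Without the dimmest transcripts 28 members were tested, and 23 were called for sex, 1 for host in males and 4 for mating by host. Array weights, whose fit stopped before its tolerance was reached, called 11 for host in males, 7 for host in females, 12 for mating by region, 20 for region in females and 21 for Punta Onah in females. A fit to 1 sex called 0 for host in males, 3 for mating by region, 2 for mating by host and 15 for region in females. Without the 2 male replicates nearest the females 5 were called for mating by host. Leaving out each replicate in turn gave 0 to 3 for host in males, 1 to 8 for mating by region, 1 to 10 for mating by host, 6 to 9 for region in females, 5 to 6 for Punta Onah in females and 28 to 34 of the same members.

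Without Punta Onah, added after seeing the data, 17 members were called for region in males, 0 for host in males, 0 for mating by region and 18 for mating by host, and the rule chose 8 of the same members. There FBtr0168369 turned to -0.65 for region in males and FBtr0168346 to -0.25 for host in males. Without the Punta Onah organ pipe stratum 0 members were called for mating by region and 6 for Punta Onah in females, and the rule chose 15 of the same. The host comparisons were not run without that stratum. Of 425 values of single transcripts, 381 kept their direction and call, 42 lost the call and 2 turned. No value of signal over background is in the files.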

Other observations

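The members were not spread evenly along the order of transcript identifiers. In consecutive blocks of 500 identifiers, 12 of the 40 members fell in 1 block, FBtr0164842 to FBtr0165360, and no other block held more than 5. The size of the blocks was chosen after this was seen, no source used here says what the numbering stands for, and the median male mating difference of all 500 transcripts in that block was -0.02.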
